A study of Bombyx mori with 9 samples.

Results

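BGIBMGA012648 and BGIBMGA014574 are the 2 silkworm genes described here. Both carry the description "Lipase" in the authors' deposited table, with no symbol, and both were selected on measured values: their FPKM differed between silk glands of different strains. They are 2 of 15745 features in the table and 2 of the 17 genes there whose description names a lipase. Because measured strain differences chose them, their levels are given as a description and were not tested.

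The tissue was the silk gland of Bombyx mori, the paired larval organ that makes fibroin and sericin for the cocoon thread. It came from 3 pure strains, A306, A798 and XH, which the submitters picked for their different gland weights. All larvae were fed under the same controlled conditions and sampled on day 5 of the fifth larval instar, and none carried a stated transgene or treatment. There were 3 libraries per strain, 9 in all, and the labels do not say whether they came from separate animals or give their sex. The spread between libraries, on which every p-value rests, may in part be technical. Averaged over the 2 stated weights of a sample, glands weighed 0.688 ± 0.0207 g (SD, n = 3) in A306, while XH glands weighed 0.974 ± 0.00850 g and A798 glands 1.28 ± 0.0307 g.

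Lipases cut the ester bonds that tie fatty acids to glycerol. In insects, some are secreted into the gut and digest dietary fat, others free fatty acids from the droplets of the fat body, the organ that combines the roles of liver and adipose tissue, and acid lipases work in lysosomes. The single word "Lipase" does not tell to which of these classes BGIBMGA012648 and BGIBMGA014574 belong. Late in larval life the fat body also secretes storage proteins and small lipoproteins, the 30K proteins, into the haemolymph that bathes the silk gland.

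Expression was given as FPKM, fragments scaled to transcript length and to the mapped total of the library, so levels of different genes can be set side by side per length. Library sums of FPKM ran from 502510 to 587872, and noncoding ENSRNA models took 5.07% to 19.7% of the sum, the highest share in A798 replicate 3. Depth is unknown, as no counts were analysed here. The median gene of the 4636 features tested lay 0.31 higher in A306 than in A798 on the log2 scale, 0.19 higher in XH than in A798 and 0.12 higher in A306 than in XH. Of the features called in these comparisons 79.8%, 76.2% and 63.3% were higher in the first strain, against 48.8%, 47.1% and 51.2% after TMM scaling, 47.6%, 44.1% and 54.0% after median centring, and 67.2%, 69.3% and 51.2% without the ENSRNA features. The fibroin light chain, the defining silk gland transcript, stood at 19575 to 31390 FPKM in every library. The fibroin heavy chain differed more, at 268 ± 5.81 FPKM in A306, 854 ± 34.1 in A798 and 1480 ± 40.5 in XH (n = 3). Its log2 change in A306 against A798 was -1.67 (limma adjusted p = 2.95e-08), beside 0.24 for the light chain. Of 7 silk gland markers tested, 2 were higher and 1 lower in A306 against A798, beside 37.9% and 9.6% of all features. After TMM scaling the marker counts were 0 and 5. In XH against A798, 3 were higher and 1 lower, beside 25.7% and 8.02% of all features.

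The lipase BGIBMGA012648 was present in A306 and XH glands and listed at 0 in A798 glands. Its level was 85.13, 90.72 and 96.49 FPKM in the 3 XH libraries and 19.13, 27.61 and 29.20 FPKM in those of A306. In A798 all 3 libraries were listed at 0. The XH libraries lay above every A306 library, and both strains lay apart from A798.

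The XH mean of BGIBMGA012648, 90.8 ± 5.68 FPKM, was 3.59-fold that of A306, 25.3 ± 5.41 FPKM (mean ± SD, n = 3). On the log2(FPKM + 1) scale A306 minus XH gave -1.82. No fold is given against A798: on the log2(FPKM + 1) scale the differences were 4.70 for A306 and 6.52 for XH, and the pseudocount of 1 sets their size. Among the 4636 features tested, the gene ranked between 355 and 386 from the top in XH libraries and between 854 and 1186 in A306 libraries. Its coefficient of variation was 21.4% in A306 and 6.26% in XH, where the median feature with a mean of at least 1 FPKM had 12.5% and 13.2%. The A306 libraries thus varied more around their mean than most features did, and the XH libraries less.

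Whether an exact 0 in this table is an absent transcript or a failed estimate was not tested. Of the 15745 features, 5418 had 0 in every library, and these included 7 of 55 genes described as ribosomal proteins, which every cell uses. A 0 in all strains is a different case from the 0 of BGIBMGA012648 in A798 alone. Of the 4636 features tested, 16 (0.345%) were listed at 0 in all A798 libraries and above 0 in the other 6 libraries. Among features with this pattern, 4 had means of at least 10 FPKM in both other strains. At a limit of 25 FPKM, BGIBMGA012648 and the undescribed gene BGIBMGA013778 remained. That limit lies just under the A306 mean of BGIBMGA012648, 25.3 FPKM, so this last count is no measure of rarity. The same pattern with A306 at 0 held for 55 features (1.19%), and with XH at 0 for 27 (0.582%). The 0 of BGIBMGA012648 in A798 was not checked against reads.

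The lipase BGIBMGA014574 was detected in all 3 strains, and its order was another: XH highest, A798 between, A306 lowest. Its level was 41.25, 43.30 and 42.21 FPKM in XH and 7.69, 7.64 and 7.43 FPKM in A798. In A306 it was 0.66, 0.60 and 0.32 FPKM. The 3 strains did not overlap, and within A798 and within XH the libraries lay close together.

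The XH mean of BGIBMGA014574, 42.3 ± 1.03 FPKM, was 5.57-fold that of A798, 7.59 ± 0.138 FPKM, and the A798 mean was 14.4-fold that of A306, 0.527 ± 0.181 FPKM (mean ± SD, n = 3). The log2(FPKM + 1) differences were 2.33 for XH against A798 and -2.50 for A306 against A798, and A306 minus XH gave -4.83. A coefficient of variation of 1.82% in A798 was below that of all but 3.09% of 3951 features, and 2.43% in XH was below that of all but 6.94% of 4120. In A306 it was 34.5%, at levels below 1 FPKM. BGIBMGA014574 ranked between 626 and 634 of the features tested in XH libraries, between 1736 and 1753 in A798 and between 4142 and 4206 in A306.

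**Figure D1:**
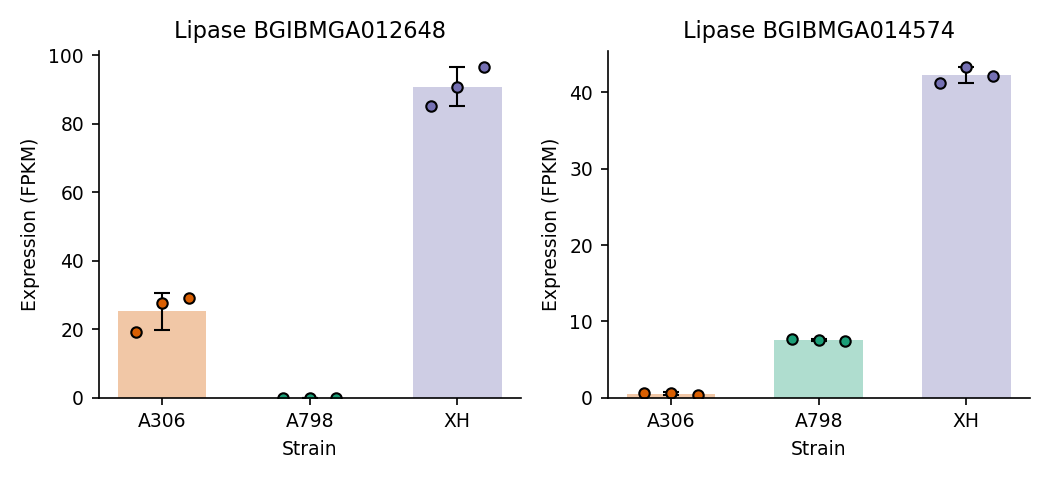
Expression of the lipases BGIBMGA012648 (left) and BGIBMGA014574 (right) in FPKM (y axis) by strain (x axis). Points are libraries, bars their mean and error bars the SD (n = 3). BGIBMGA012648 is listed at 0 in A798 and BGIBMGA014574 is lowest in A306, and both are highest in XH.

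The 2 lipases thus shared their highest strain and differed in their lowest. In XH the level of BGIBMGA014574 was 46.6 ± 2.54% of that of BGIBMGA012648 in the same library, and in A306 2.24 ± 1.18% (mean ± SD, n = 3), a measure that a factor common to a library leaves unchanged. Neither order follows gland weight, in which XH lies between A306 and A798. Groups without overlap were common in this table: A306 and A798 libraries were fully separated for 56.7% of features, XH and A798 libraries for 46.3% and A306 and XH libraries for 50.1%. By limma at an adjusted p below 0.05, 47.5%, 33.7% and 36.5% of features were called in these comparisons. These shares are given as background, since the strain differences themselves chose both genes.

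Of the 6 genes with the profile most like BGIBMGA014574, the 4 nearest were genes of fat body products. Likeness was the root mean square difference of log2(FPKM + 1) over the 9 libraries, after the mean of each gene was taken off, and it is a description over libraries of only 3 strains. The nearest of 4635 features was SP2, a storage protein of the haemolymph described as sex-specific, at 0.114. The storage protein SP3 followed at 0.184. The 30K lipoprotein genes LP-C19 and LP came next at 0.241 and 0.307. The undescribed gene BGIBMGA003705 followed at 0.358, and the sixth was BGIBMGA000462, described as a 27 kDa glycoprotein, at 0.497. The median feature lay at 2.06, and the other lipase, BGIBMGA012648, at 2.96, in place 4512.

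SP2, the nearest, stood at 154.01, 151.99 and 155.62 FPKM in XH, at 32.32, 31.41 and 28.93 FPKM in A798 and at 5.21, 3.84 and 3.11 FPKM in A306. Its strain order was that of BGIBMGA014574, without overlap. SP3 averaged 186 ± 2.12 FPKM in XH, 38.5 ± 2.44 in A798 and 4.26 ± 0.368 in A306. LP-C19 averaged 439 ± 12.5, 124 ± 4.32 and 15.4 ± 1.13 FPKM in the same order of strains (n = 3 each).

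Set against SP2 in the same library, BGIBMGA014574 stood at 27.5 ± 0.902% in XH, 24.6 ± 0.975% in A798 and 12.9 ± 2.67% in A306 (mean ± SD of FPKM ratios, n = 3). Against SP3 the shares were 22.7 ± 0.757%, 19.8 ± 0.918% and 12.2 ± 3.36%. XH and A798 lay closer to each other than to A306 on both scales, but their libraries did not overlap. SP2 itself was 4.98-fold and SP3 4.85-fold higher in XH than in A798, beside 5.57-fold for the lipase. Against LP-C19 the strains were further apart, with 9.62 ± 0.191% in XH, 6.11 ± 0.209% in A798 and 3.40 ± 1.13% in A306.

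**Figure D2:**
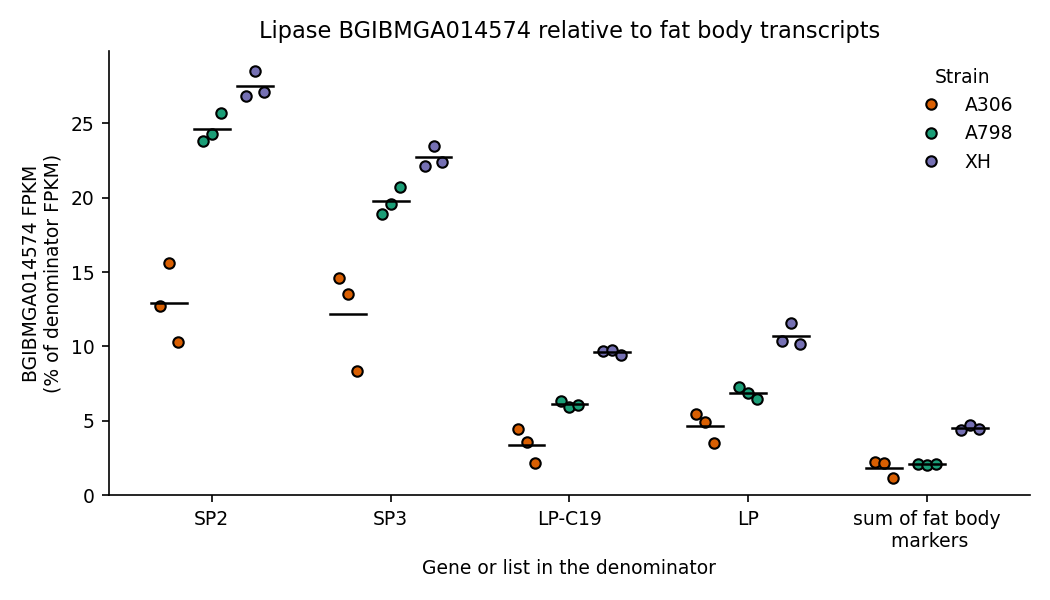
FPKM of BGIBMGA014574 as a percentage (y axis) of the FPKM of SP2, SP3, LP-C19 and LP, and of the sum of the fat body marker list (x axis), by strain. Points are libraries and lines their means (n = 3). Against SP2 and SP3, XH lies above A798 without overlap, and A306 lies further below. Against the list's sum A306 and A798 lie close together and XH higher.

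Markers of the fat body moved with BGIBMGA014574. They were not alone in this. The fibroin heavy chain, PRO-PO2 of the haemocyte markers and MF-CPA also averaged highest in XH and lowest in A306. MF-CPA is described as a molting fluid carboxypeptidase and entered the midgut list by the word carboxypeptidase. PRO-PO2 and MF-CPA stayed below 1 FPKM outside XH and passed the filter through their XH libraries, which favoured their being highest there. Of 16 genes matched as fat body markers, 10 were tested: 8 fell and none rose in A306 against A798, all 10 rose in XH against A798, and all 10 fell in A306 against XH (limma, Benjamini-Hochberg adjusted p below 0.05). Over all features tested, 9.6% fell in the first comparison, 25.7% rose in the second and 13.4% fell in the third. The list members BGIBMGA004404, SLP, LSP-T and BGIBMGA008164 reached at most 1.18 FPKM outside XH and passed the filter through their XH libraries. The filter thus favoured their being highest in XH. SP1 and BGIBMGA004398 stayed below 1 FPKM in A306 and passed it through the other strains, which favoured their being lowest in A306. The list's median log2 change was -2.01, 0.98 and -3.84, beside 0.31, 0.19 and 0.12 for all features. Its summed level ran from 27.8 to 29.5 FPKM in A306, from 357 to 372 in A798 and from 914 to 948 in XH, and none of its 16 members was at 0 in all libraries. The fold of XH over A798 was not common to the list. It was 1.39 for SP1, described as a sex-specific storage protein, and 5.40 for the 30K protein gene BGIBMGA004398. These folds stand below and near that of BGIBMGA014574. BGIBMGA014574, which is not on the list, stood at a percentage of the list's summed FPKM of 4.52 ± 0.200% in XH, 2.08 ± 0.0255% in A798 and 1.85 ± 0.609% in A306 (n = 3). The part of fat body RNA in the level of BGIBMGA014574 was not tested. In such bulk samples, fewer cells of a type and less RNA per cell cannot be told apart.

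BGIBMGA012648 did not share this order, being higher in A306 than in A798 where the fat body list was lower. Its nearest profile was that of BGIBMGA004882, an undescribed gene, at a root mean square difference of 0.497 against 2.68 for the median feature. BGIBMGA004882 stood at 27.54, 22.14 and 23.57 FPKM in A306, at 0, 0.32 and 0 FPKM in A798 and at 55.10, 53.20 and 44.81 FPKM in XH. It too was near 0 in A798 and highest in XH. The next were BGIBMGA011127 at 0.938, BGIBMGA013778 at 1.16, the cuticle protein gene BMORCPH21 at 1.24, BGIBMGA008507 at 1.27 and BGIBMGA007912 at 1.32, and of these 6 BMORCPH21 alone had a description. It stood at 11.4 ± 1.83 FPKM in A306, 0.947 ± 0.966 in A798 and 22.6 ± 4.08 in XH (n = 3). For BGIBMGA014574, 5 of the 6 nearest had a description.

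**Figure D3:**
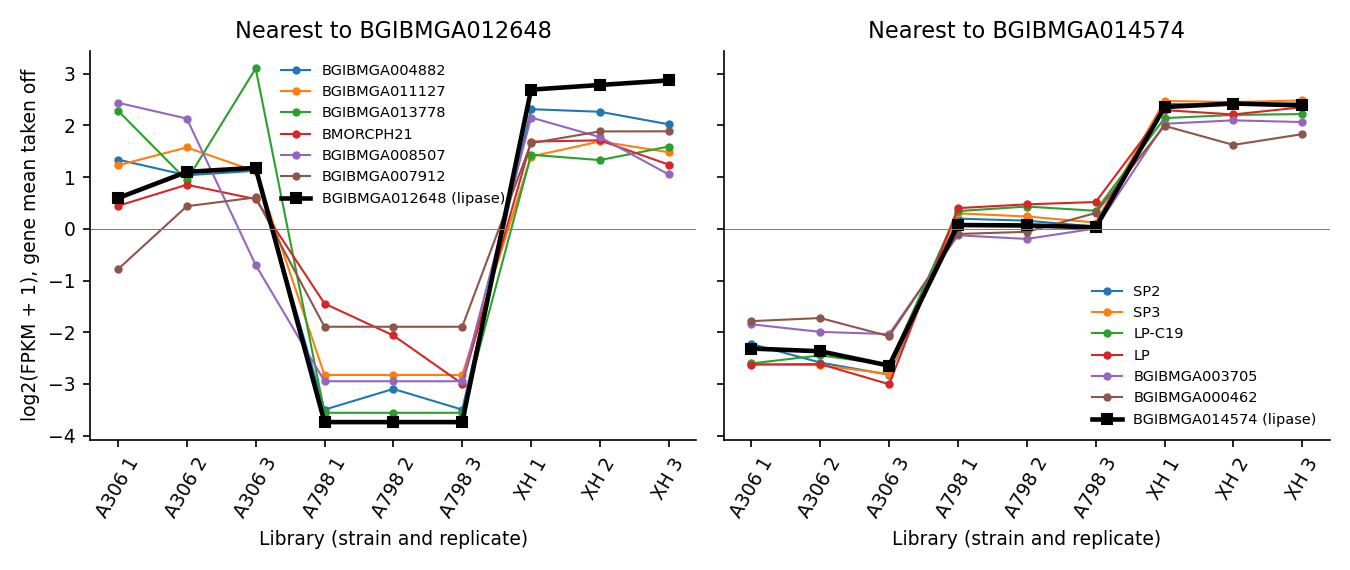
Profiles of BGIBMGA012648 (left, black) and BGIBMGA014574 (right, black) with the 6 features nearest to each, as log2(FPKM + 1) with the mean of the gene taken off (y axis), in each library (x axis). The lines on the right lie within a narrow band around the lipase, and those on the left share the low A798 values but spread more in A306.

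Of the other marker lists, muscle markers summed to 72.1 to 81.7 FPKM in A306, 38.5 to 44.0 in A798 and 68.7 to 72.7 in XH, a sum made up mostly by actin A1 (72.9 ± 3.74, 38.2 ± 2.95 and 62.0 ± 2.65 FPKM, n = 3). Of 3 muscle markers tested, actin A1 alone was called in A306 against A798 (higher), where 37.9% of all features were higher. In XH against A798, 2 were higher and none lower, beside 25.7% and 8.02% of all features. Cuticle and tracheal markers, 93 of 179 of them at 0 in all libraries, summed to 12100 to 13500, 3480 to 3640 and 4280 to 4740 FPKM in A306, A798 and XH. Of 25 tested, 8 were higher and 5 lower in A306 against A798, beside 37.9% and 9.6% of all features. These counts turned to 5 and 7 after TMM scaling or median centring. In XH against A798, 16 were higher and 1 lower, beside 25.7% and 8.02% of all features. The one lower in XH, the cuticle protein gene BMORCPR101, was also lower in A306 than in A798 (log2 changes -4.54 and -4.48). Haemocyte markers summed to 2.32 to 3.23, 2.02 to 2.60 and 6.48 to 7.03 FPKM, and the ranges of A306 and A798 overlapped. The 2 tested members of that list differed. PRO-PO2 averaged 0.0733, 0.700 and 3.63 FPKM in A306, A798 and XH, the strain order of BGIBMGA014574, and was called in all 3 comparisons. It passed the filter through its XH libraries alone. PPO1 averaged 2.44, 1.38 and 3.01 FPKM. In A306 against A798 PRO-PO2 fell (log2 change -0.66, limma adjusted p = 0.00278) and PPO1 rose (0.53, adjusted p = 0.0176). The PPO1 call was lost after TMM scaling, median centring and without the ENSRNA features. It was also lost without A306 replicate 3 or A798 replicate 3. The part of these tissues in the level of BGIBMGA012648 was not tested. Of the 13 genes matched as midgut markers, 4 encode digestive enzymes (an amylase, aminopeptidases and a trypsin-like protease, picked out after their values were seen). Those 4 summed to 0.09 to 0.38 FPKM in every library, and the trypsin-like gene BGIBMGA010023 was listed at 0 in all. The midgut list as a whole, which holds alkaline phosphatases and the protease inhibitor SERPIN-9, summed to 48.4 to 50.0 FPKM in A306, 34.9 to 39.3 in A798 and 67.8 to 72.1 in XH.

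The other genes described as lipases were low in the silk gland. Of these 15, 14 did not reach 1 FPKM in 3 libraries and were not tested. Their highest value in any library was 0.60 FPKM, in BGIBMGA014239, and 11 of the 14 stayed below 0.5 FPKM throughout. They include brummer (BGIBMGA001056), the lipase of fat droplets, and BGIBMGA014575, described as a lipase like BGIBMGA014574, whose highest value was 0.57 FPKM. BGIBMGA009162 was listed at 0 in all libraries. BGIBMGA012648 and BGIBMGA014574 together took at least 96.6% of the summed FPKM of all 17 lipase genes in XH libraries, 94.8% to 95.4% in A306 and 56.1% to 62.9% in A798. How the authors' counting divided reads between lipase genes of similar sequence is not known.

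The only other lipase tested was acid lipase-1 (BGIBMGA005695), named like the lipases that work in lysosomes. It stood at 3.60, 4.79 and 4.59 FPKM in A798, at 2.85, 2.73 and 2.87 FPKM in XH and at 0.04, 0.16 and 0.04 FPKM in A306. It passed the filter through A798 and XH, which favoured its being lowest in A306. Like BGIBMGA014574 it was lowest in A306, but its highest strain was A798. It fell in A306 against A798 (log2 change -2.30 ± 0.127 SE, limma adjusted p = 4.47e-06) and in A306 against XH (-1.82 ± 0.127, adjusted p = 1.63e-05). In XH against A798 the fall of 0.47 ± 0.127 passed at an adjusted p of 0.0224, a call lost in 7 of 16 alternatives (adjusted p from 0.00461 to 0.165), among them those without A798 replicate 2 or 3 or without any 1 of the XH replicates.

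**Figure D4:**
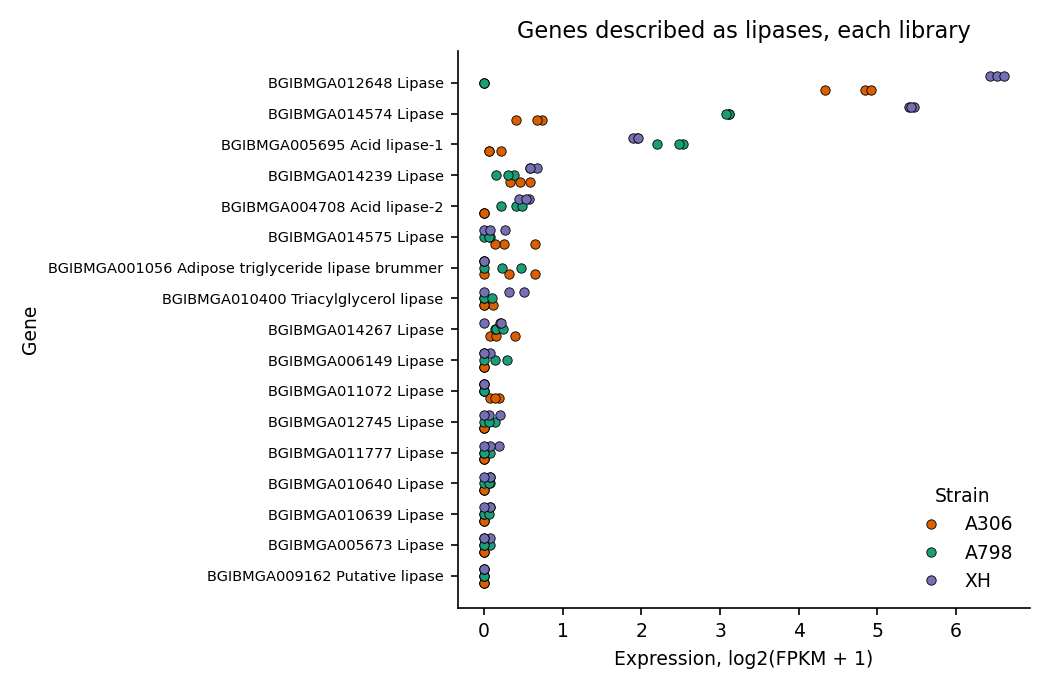
Expression of the 17 genes described as lipases, as log2(FPKM + 1) (x axis), in each library, coloured by strain. BGIBMGA012648 and BGIBMGA014574 stand far above the rest in XH, acid lipase-1 follows, and the other 14 genes stay at or below 0.60 FPKM.

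Beyond lipases, some genes of lipid handling rose and others fell in each comparison. Besides BGIBMGA012648 and BGIBMGA014574, 37 genes matched the lipid lists and 13 were tested. In A306 against A798, 5 rose and 3 fell, beside 37.9% and 9.6% of all features, but 1 rose and 5 fell after TMM scaling, and likewise after median centring. In XH against A798, 6 rose and 2 fell, beside 25.7% and 8.02%, but 1 rose and 2 fell after either scaling. In A306 against XH, 2 rose and 3 fell, beside 23.1% and 13.4%. Their median log2 changes were -0.01, 0.18 and 0.06, against 0.31, 0.19 and 0.12 for all features.

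Of the esterases, which cut other ester bonds, the carboxylesterase AE13 (BGIBMGA012031) was the one lowest in XH, the strain in which both lipases were highest. It stood at 0.38, 0.60 and 0.23 FPKM in XH, against 14.4 ± 0.573 FPKM in A306 and 14.5 ± 0.705 in A798 (n = 3). It passed the filter through A306 and A798. It fell in XH against A798 (log2 change -3.48 ± 0.110 SE, limma adjusted p = 2.72e-07) and was higher in A306 than in XH (3.47 ± 0.110, adjusted p = 1.54e-07). The carboxylesterase ae27 (BGIBMGA001841) stood at 21.3 ± 0.470 FPKM in A306, 25.6 ± 1.14 in A798 and 29.8 ± 0.195 in XH. Its fall in A306 against A798 (-0.25, adjusted p = 0.00493) and against XH (-0.46, adjusted p = 0.000242) held in all 17 alternatives. Its rise in XH against A798 (0.21, adjusted p = 0.0148) turned negative after TMM scaling and median centring and was lost without the ENSRNA features.

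Among carriers and enzymes of fatty acids, the fatty acid binding protein gene BMFABP2, whose product carries fatty acids within cells, averaged 6.50 ± 2.11 FPKM in A306, 16.1 ± 3.24 in A798 and 10.8 ± 3.94 in XH (n = 3). It fell in A306 against A798 (log2 change -1.21 ± 0.296 SE, limma adjusted p = 0.0112), while XH against A798 (-0.57, adjusted p = 0.183) and A306 against XH (-0.63, adjusted p = 0.141) did not pass. XH replicate 2 weighed on both: without it the first became -0.30 (adjusted p = 0.457) and the second passed (-0.91, adjusted p = 0.0377). Without XH replicate 3 the second became -0.40. The acyl-CoA desaturase BMORKPAE, which puts a double bond into fatty acids, rose in A306 against A798 (0.72 ± 0.156, adjusted p = 0.00639), a call lost after TMM scaling and median centring (adjusted p = 0.0842 and 0.0774). Its change in XH against A798 was 0.44 (adjusted p = 0.0629), and it passed without A798 replicate 1 (0.56, adjusted p = 0.0342) or XH replicate 1 (0.56, adjusted p = 0.0346). Phosphomevalonate kinase (MPK_BM), of isoprenoid synthesis, was higher in both lighter strains than in A798, at 24.6 ± 0.483 FPKM in A306 and 23.7 ± 2.73 in XH against 13.73, 15.38 and 15.76 FPKM in the A798 libraries (log2 changes 0.68 and 0.63, adjusted p = 0.000560 and 0.00132). Both calls held in all 17 alternatives, and the comparisons share the A798 libraries. The farnesyltransferase subunits FNTA and FNTB, which attach isoprenoids to proteins, rose by 0.41 and 0.53 in A306 and by 0.47 and 0.45 in XH against A798 (adjusted p from 0.00408 to 0.0121), and all 4 calls were lost after TMM scaling and median centring, that of FNTA in A306 also without the ENSRNA features. The electron-transfer-flavoprotein beta subunit gene (BGIBMGA004824), which takes electrons from fatty acid breakdown, rose by 0.48 in A306 and 0.25 in XH against A798 (adjusted p = 0.000425 and 0.0155), and both calls were lost under the same scalings. Its change of 0.23 in A306 against XH (adjusted p = 0.0210) was lost in 7 of 17 alternatives. The phosphatidylethanolamine binding protein gene BGIBMGA013260 fell in A306 against XH (-0.23, adjusted p = 0.00141), and this call held in all 17.

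**Figure D5:**
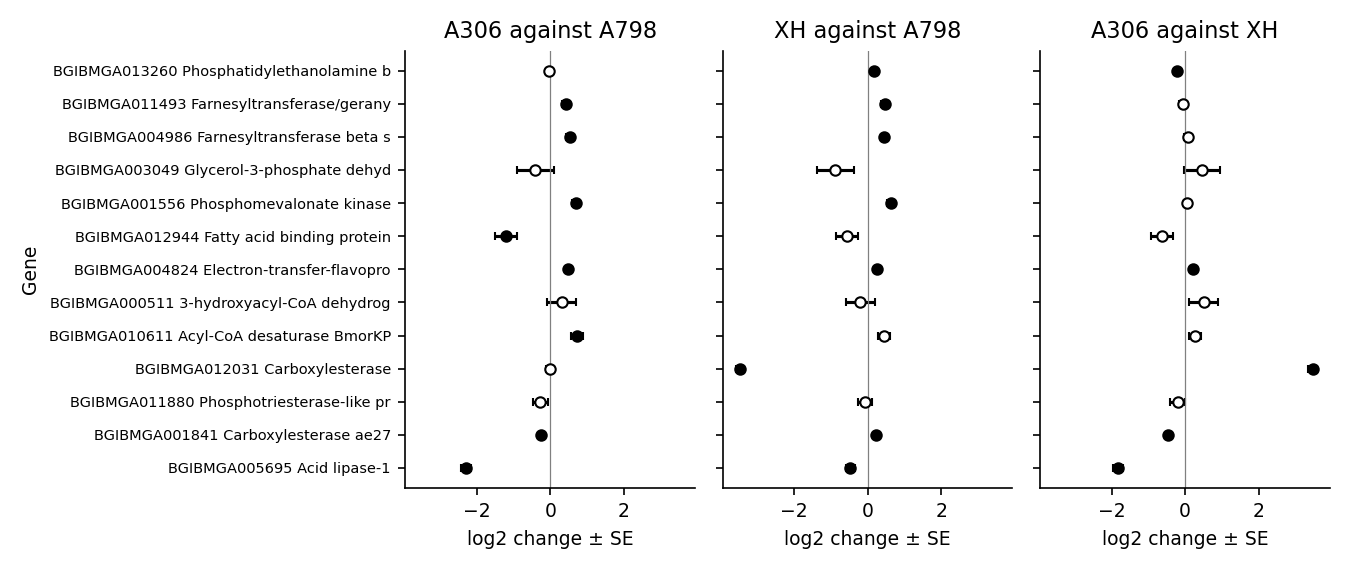
Log2 changes of FPKM + 1 (x axis) with their SE for the 13 tested genes of the lipid lists other than BGIBMGA012648 and BGIBMGA014574 (y axis), in the 3 comparisons; filled points passed limma at an adjusted p below 0.05. Acid lipase-1 is lowest in A306 and AE13 in XH, and most other genes lie within 1 log2 unit of 0.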

How the data were processed

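Silk gland RNA of 9 libraries was measured by RNA-seq. The authors deposited FPKM per gene to 2 decimals, made with StringTie 1.3.3b after fastp 0.19.5, per the submitters' processing notes, which also list DESeq2 1.24.0; aligner, build and annotation: not given in the sources used here. A second deposited table repeats FPKM of 5 genes (largest difference 0), neither lipase among them. Low values were searched for steps of single fragments: of 342 features at 0.3 to 3 FPKM in 3 to 6 libraries, 18 had values within a ratio of 1.3, too few to give depth. None of the identifiers (0 of 15745) matched the RefSeq gene table at hand, so no positions or sequences are given.

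The 4636 features that reached 1 FPKM in 3 or more libraries were tested as log2(FPKM + 1), a scale that understates changes of low genes, with limma 3.58.1 in R 4.3.3: strain means over all 9 libraries, a variance trend, Benjamini-Hochberg adjustment and a two-sided threshold of 0.05. BGIBMGA012648 and BGIBMGA014574 pass that filter through the strains in which they are high. Gene lists were matched by words of names and descriptions. Phosphotriesterase-like and phosphatidylethanolamine binding proteins entered the lipid lists that way, fibroinase and FMBP-1 those of the silk gland and MF-CPA that of the midgut. LP and LP-C19 were missed for the fat body. Named were all tested lipases, and per lipid list and comparison up to 3 called genes with the largest change, or the most abundant gene where none was called, and the 6 features nearest to each lipase. The 2 genes, the lists and the tests were chosen with earlier results of these data known. The procedure was tested on simulated data. Alternatives were a pseudocount of 0.1, no filter, FPKM of at least 5, unweighted TMM scaling, median centring, no ENSRNA features, no variance trend, a replicate block and leaving out each library.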

Additional observations from a re-analysis of the deposited data

How the results depend on the processing

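The differences of BGIBMGA012648 and BGIBMGA014574 between strains kept their sign under every alternative tried on them. At a pseudocount of 0.1, the log2 differences of BGIBMGA012648 from A798 became 7.97 in A306 and 9.83 in XH, and those of BGIBMGA014574 became -3.66 (A306 against A798), 2.46 (XH against A798) and -6.13 (A306 against XH). Median centring gave 4.37 and 6.28 for BGIBMGA012648 in A306 and XH against A798, and -2.82 and 2.09 for BGIBMGA014574. TMM scaling gave -2.74 and 2.10 for the latter, and leaving out ENSRNA features 2.27 in XH against A798.

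With 1 library left out, BGIBMGA012648 ran from 4.59 to 4.88 (A306 against A798), 6.47 to 6.56 (XH against A798) and -1.93 to -1.64 (A306 against XH), and BGIBMGA014574 from -2.56 to -2.40, 2.32 to 2.35 and -4.90 to -4.73. Features called ran from 1896 to 2152, 1233 to 1499 and 1434 to 1693, and lipid list genes called from 8 to 8, 7 to 9 and 4 to 6. The lipid count in XH against A798 fell from 8 to 3 under TMM scaling and 3 under median centring, and that in A306 against XH rose from 5 to 8 with no filter, where more genes were tested. The ae27 change in XH against A798 turned to -0.0313 with TMM scaling and -0.0265 with median centring. With FPKM of at least 5 the fat body list kept fewer tested genes. Of these, 6 were called in XH against A798 and 6 in A306 against XH. Of 10 fat body genes, 7 rose in XH against A798 at a pseudocount of 0.1, 8 after median centring and 9 after TMM scaling. In A306 against A798, 9, 10 and 8 fell under these settings, and in A306 against XH all 10 fell.

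Same-numbered libraries of different strains shared little of their deviations (r over features 0 to 0.063 in 9 pairs). In the 18 pairs with different numbers r ran from -0.093 to 0.036. Values this near 0 cannot settle whether same-numbered libraries were handled together. With a replicate block 2080, 1388 and 1589 features were called, against 2204, 1563 and 1693. Depth is unknown, which limits what can be said of values below 1 FPKM.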
